A study of Mus musculus with 8 samples.

Results

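The MYC, MAX and MXD network was described through 9 genes, taken as the rows of the deposited junction table whose Ensembl identifiers carry the symbols Myc, Max, Mxd1, Mxd3, Mxd4, Mxi1, Mnt, Mga and Mlx. All 9 were in the table, with 72 of its 134051 splice junctions, out of 13378 genes, and all 9 were among the 11003 genes tested. RNA was sequenced from FT1CL, a mouse acute myeloid leukemia line grown with interleukin-3. The 4 knockout libraries are labelled Cop1 ko/ko and came from cells given 4-hydroxytamoxifen to delete Cop1, and the 4 wild-type libraries are labelled Cop1 +/+ and came from cells with no treatment. Cop1 encodes a ubiquitin ligase. Per the series' design text, the marrow came from an 8-week-old mouse with a conditional Cop1 allele and a Cre-ERT2 at Rosa26, was taken 5 days after 150 mg/kg of 5-fluorouracil, and was transduced with a pMYs retrovirus that carries Trib1, so both groups carry Trib1. Genotype and 4-hydroxytamoxifen changed together and cannot be told apart, and all 8 libraries come from 1 line. The labels do not say whether libraries of a group are separate cultures, so p-values here describe only how far these libraries differ among themselves, possibly for technical reasons.

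MYC is a transcription factor that binds DNA only as a pair with MAX, at E-box sequences, and raises genes for growth, nucleotide synthesis and ribosome assembly. The MXD proteins, with MXI1 as a member of that family, and MNT also pair with MAX, occupy the same sequences and recruit the SIN3 corepressor, so that they oppose MYC. In the myeloid lineage MXD1 is known as a gene of maturing cells and MYC as a gene of dividing precursors. MGA joins MAX to a Polycomb complex called PRC1.6, and MLX pairs with MXD1, MXD4, MNT and the glucose-responsive factors MLXIP (MondoA) and MLXIPL (ChREBP).

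In Cop1 knockout cells, 2 of the 9 genes were higher than in wild-type cells, Mxd1 and Mxi1, and 1 was lower, Myc, by limma with Benjamini-Hochberg adjustment over all genes tested. Across all genes tested, 8.49% were called higher and 12.1% lower by the same rule, which made 934 higher and 1330 lower calls; with TMM scaling these were 1092 and 972. With 1 library left out, higher calls ranged over 509 to 1249 (moving by over 1.5 times without knockout library 1, 2 or 3 or wild-type library 2), and lower calls over 706 to 1742 (likewise without knockout library 1, 2 or 3 or wild-type library 1, 2 or 4). The groups did not overlap for these same 3 genes, while over all genes tested the knockout libraries all lay above the wild-type ones for 9.79% and all below for 15.4%. The other 6 genes did not pass the test. Levels are junction reads summed over a gene, per 1000000 junction reads of the library (RPM), and the library totals were 17333302 to 22469109 reads in the knockout and 17811247 to 20981993 in the wild type. Fold changes are on the log2(RPM + 1) scale, knockout minus wild type. The median of all genes tested lay at -0.07 on that scale.

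**Figure D1:**
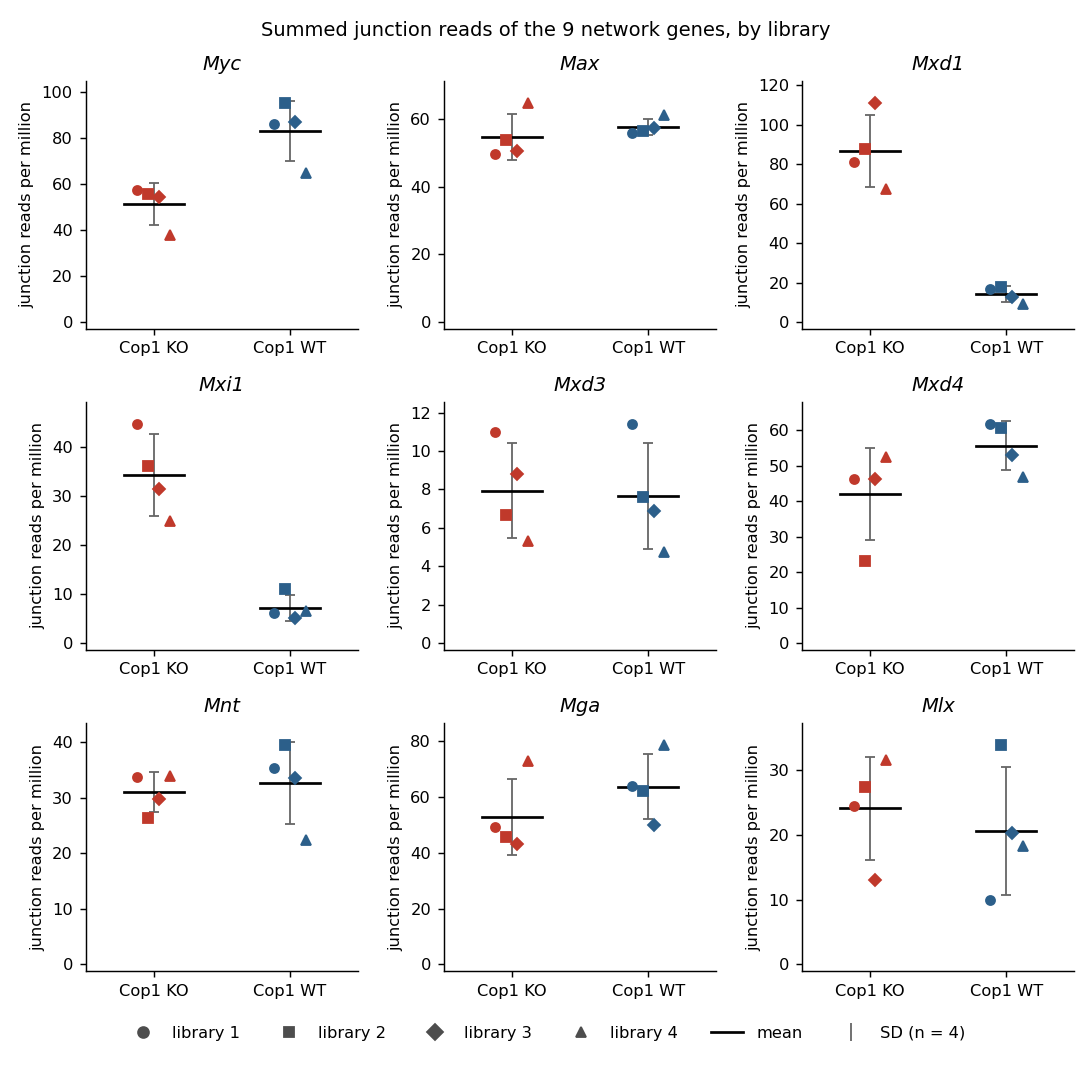
Junction RPM of each of the 9 genes (vertical axes, from 0) in the 4 Cop1 KO libraries (left, red) and the 4 Cop1 WT libraries (right, blue), with a marker for each library number, the mean as a line and the SD as a bar. Mxd1 and Mxi1 lie higher in every KO library than in any WT library, Myc lies lower, and the other 6 genes overlap.

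The targeted gene and the transduced gene were read first. Cop1 averaged 73.7 ± 6.47 RPM in knockout libraries and 162 ± 2.92 RPM in wild-type libraries (SD, n = 4 each), a log2 fold change of -1.13 (SE 0.08, limma adjusted p = 0.000491). Its reads were thus lowered but present in every library labelled knockout. Trib1, whose reads can come from the retrovirus as well as the gene, ranged over 390 to 1380 RPM in knockout and 199 to 720 RPM in wild-type libraries and did not pass the test (log2 fold change 1.06, SE 0.49, limma adjusted p = 0.164). With the library number as a block it passed, with an adjusted p of 0.0213. The libraries numbered 4 stood apart: neutrophil maturation genes (16 in the list) summed to 713 RPM in knockout library 4 and 5490 to 11700 RPM in the other 3, against 106 RPM in wild-type library 4 and 294 to 471 RPM in the other 3.

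Mxd1, the MAX partner that opposes MYC in maturing cells, lies on chromosome 6 of build mm10 at 86647042 to 86669161, minus strand. It was read at 80.9, 87.5, 111 and 67.4 RPM in knockout libraries 1 to 4, against 16.8, 18.0, 12.8 and 9.26 RPM in wild-type libraries 1 to 4. The lowest knockout library was well above the highest wild-type library. Its log2 fold change was 2.55 (SE 0.23), 5.84-fold on that scale, with a limma adjusted p of 0.000994, and it was higher in the knockout in 4 of 4 same-numbered pairs. All 5 of its junctions took part. The one between exon blocks 1 and 2 had 265, 252, 341 and 242 reads in the knockout and 55, 55, 41 and 22 in the wild type, and the one between blocks 5 and 6 had 437, 360, 527 and 411 reads in the knockout and 79, 65, 56 and 30 in the wild type. No Mxd1 junction had a value far below the rest of the gene, so its sum was the same with or without the exclusion described for Mxi1. Its call held in all 25 alternative settings, with log2 fold changes of 2.26 to 2.85.

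The promoter of Mxd1, from 250 bases before to 50 bases after the start site in RefSeq on GRCm38.p6, lies at chr6:86669110-86669409 on the minus strand. It is shown because Mxd1 had the largest log2 fold change of the 9 on the full sums. By the most-read junction alone that of Mxi1 was larger, at 3.54. That Mxi1 junction, however, had 1 read in each of wild-type libraries 1, 3 and 4, far below the rest of its gene. The Mxd1 promoter holds no CACGTG, the E-box bound by pairs of MAX with MYC or an MXD protein, on either strand.
Mxd1: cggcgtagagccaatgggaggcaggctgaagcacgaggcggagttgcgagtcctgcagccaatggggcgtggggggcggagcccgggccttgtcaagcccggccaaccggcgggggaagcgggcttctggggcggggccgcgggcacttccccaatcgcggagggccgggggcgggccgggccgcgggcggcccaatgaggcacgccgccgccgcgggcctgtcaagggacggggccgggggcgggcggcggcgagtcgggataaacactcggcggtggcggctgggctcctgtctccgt

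Mxi1, a second MXD-family gene, lies on chromosome 19 at 53310518 to 53375810, plus strand. It was read at 44.6, 36.1, 31.3 and 24.8 RPM in knockout libraries 1 to 4, against 6.20, 11, 5.13 and 6.51 RPM in wild-type libraries 1 to 4. The groups were separate. The log2 fold change was 2.12 (SE 0.25, limma adjusted p = 0.00225), higher in the knockout in 4 of 4 pairs, and the call held in all 25 alternatives. Its size did not hold: it ran from 0.97 to 3.54 across them.

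The size turned on 2 of the 6 Mxi1 junctions. The junction between blocks 9 and 10 had 383, 403, 399 and 325 reads in the knockout and 1, 121, 1 and 1 in the wild type, and that between blocks 8 and 9 had 283, 5, 1 and 4 reads in the knockout and 3, 2, 3 and 7 in the wild type. Such values, at or under 6 reads against a prediction of 100 or more from the rest of the gene, were found all over the table, in 28780 values or 6.39% of those of well-read junctions (6.09 to 6.55% per knockout library and 6.05 to 6.74% per wild-type library). Their cause was not tested. Left out, the 4 remaining Mxi1 junctions summed to 12.1, 12.6, 10.7 and 10.2 RPM in knockout libraries against 6.01, 4.46, 4.92 and 6.06 RPM in wild-type libraries. The groups stayed separate, at a log2 fold change of 0.97 (SE 0.14, limma adjusted p = 0.00308). By the same sums, 10.5% of the 10969 genes tested were called higher and 16.5% lower. Of the 4 remaining Mxi1 junctions, that from block 1 to block 5 was at 4.07 times its wild-type mean. The others were at 0.748, 1.01 and 0.515 times, so the rise in this sum rests on 1 junction. The last 2 of these, from block 5 to 7 and from block 7 to 8, had only 80 and 56 reads over all libraries. Each had 1 read in knockout library 1. At a lower limit of 20 predicted reads, 2 and 3 of their values also lay far below the gene. Their ratios therefore say little about the level of Mxi1.

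**Figure D2:**
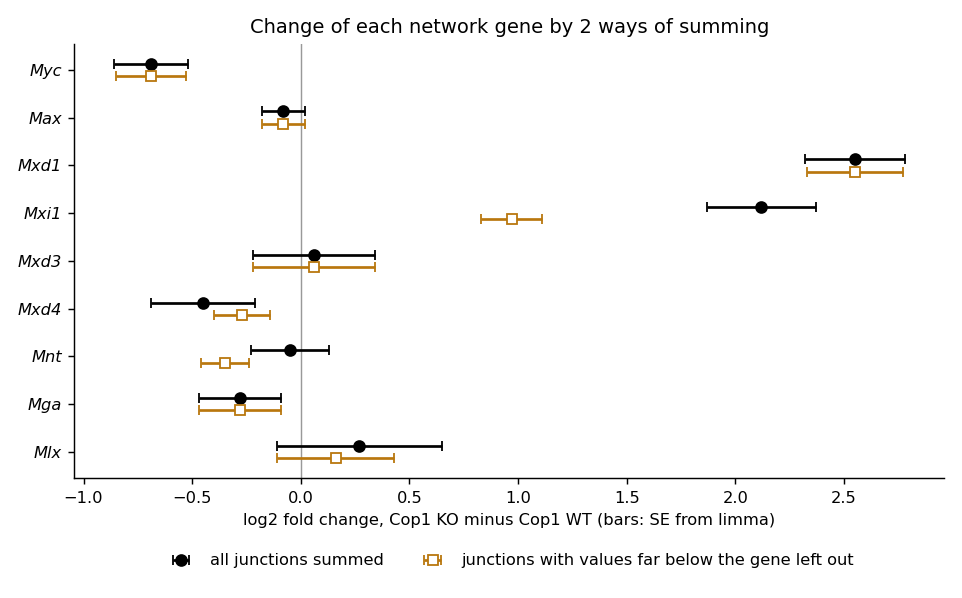
Log2 fold change of each of the 9 genes, Cop1 KO minus Cop1 WT (horizontal axis), with all junctions summed (filled circles) and without junctions that have a value far below the rest of their gene (open squares); bars are the SE from limma. Mxd1 and Myc are the same by both sums, Mxi1 is 2.12 and 0.97, and Mnt is -0.05 and -0.35.

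Mxi1 is transcribed from several first exons, which give proteins with different amino ends. In the table, exon blocks 1 and 2 each join block 5. The junction from block 1 had 220, 190, 154 and 144 reads in the knockout and 57, 37, 46 and 31 in the wild type, without overlap. The junction from block 2 had 26, 23, 36 and 47 reads in the knockout and 42, 31, 35 and 58 in the wild type, and here the groups overlapped. Block 1 thus gave 89.4, 89.2, 81.1 and 75.4% of the reads of both in the knockout, against 57.6, 54.4, 56.8 and 34.8% in the wild type. The means were 83.8 ± 6.81% and 50.9 ± 10.8% (SD, n = 4 each), with an exact two-sided permutation p of 0.0286, the smallest that 4 against 4 can give, and 0.0572 adjusted over the 6 ratios tested. The permutation test took the libraries as unpaired, although their numbers pair them. This share was chosen after its values were seen. The planned diffSplice test of junction use, at a mean of at least 100 reads, held 17 member junctions of 5 genes, none of them from Mxi1, and called 0 (0 also at an unadjusted p under 0.05), beside 0.0282% of all junctions tested. At a mean of at least 30 reads it held 43 member junctions of all 9 genes and called 2, these same Mxi1 junctions, 2.38 higher in the knockout for block 1 relative to block 2 (log2 scale, limma adjusted p = 0.00665), beside 0.245% of all junctions tested. No other Mxi1 junction was held, so each was measured against the other and the 2 calls are 1 contrast. That contrast uses the same reads as the share and adds no separate support.

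**Figure D3:**
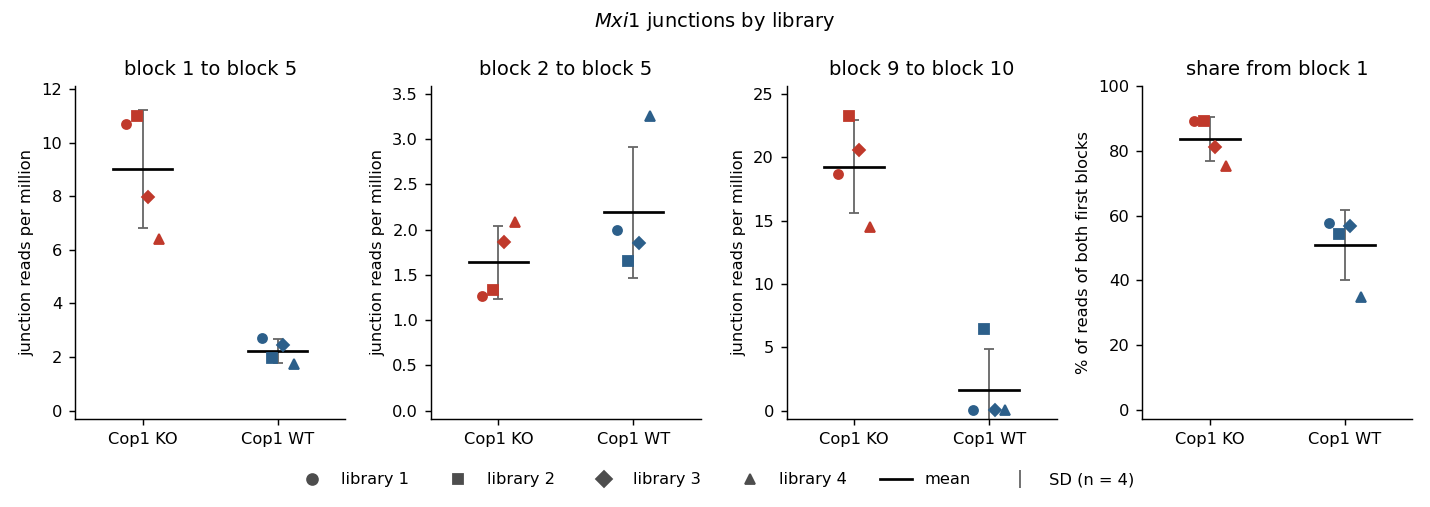
RPM of 3 Mxi1 junctions and the share of block 1 among the reads of both first blocks (vertical axes), in the Cop1 KO libraries (left, red) and the Cop1 WT libraries (right, blue), with the mean as a line and the SD as a bar. Block 1 to block 5 is higher in all KO libraries, block 2 to block 5 overlaps, and block 9 to block 10 is at 1 read in 3 of the 4 WT libraries.

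The blocks carry no coordinates, and which annotated first exon each of them is was not given in the sources used here. Gencode M21 has Mxi1 first exons at 53310518 to 53310973, at 53313066 to 53313301 and in a cluster that starts at 53329413, all joined to an exon at 53331351 to 53331483. RefSeq gives 3 Mxi1 promoters, and the most upstream and the next are shown to set the 2 regions side by side. They lie at chr19:53310256-53310555 and chr19:53329163-53329462, plus strand, and neither holds CACGTG.
Mxi1 upstream: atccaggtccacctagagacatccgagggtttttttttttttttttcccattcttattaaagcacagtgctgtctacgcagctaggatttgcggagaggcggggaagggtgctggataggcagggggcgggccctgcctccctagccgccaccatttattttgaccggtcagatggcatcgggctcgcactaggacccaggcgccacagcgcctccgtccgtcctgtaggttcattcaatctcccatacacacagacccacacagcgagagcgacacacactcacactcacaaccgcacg
Mxi1 downstream: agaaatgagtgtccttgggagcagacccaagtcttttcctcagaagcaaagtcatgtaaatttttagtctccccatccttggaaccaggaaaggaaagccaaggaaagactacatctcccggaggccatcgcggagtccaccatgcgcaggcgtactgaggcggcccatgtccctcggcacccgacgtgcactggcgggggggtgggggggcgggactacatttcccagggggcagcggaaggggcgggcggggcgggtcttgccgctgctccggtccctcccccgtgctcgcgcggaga

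Myc, on chromosome 15 at 61985391 to 61990374, plus strand, was read at 57.6, 55.6, 54.6 and 38.0 RPM in knockout libraries 1 to 4, against 86.3, 95.4, 87.0 and 64.8 RPM in wild-type libraries 1 to 4. The groups did not overlap, and Myc was lower in the knockout in 4 of 4 same-numbered pairs. The log2 fold change was -0.69 (SE 0.17, limma adjusted p = 0.0237). The call was lost with TMM scaling (adjusted p = 0.0509) and without knockout library 3 (0.0527) or wild-type library 1 (0.0603), 2 (0.067) or 3 (0.055). It was also lost by edgeR (0.116) and DESeq2 (0.0713), each run on 6 libraries, with knockout libraries 2 and 4 left out. In fits of both tools on all 8 libraries, which were withdrawn because recovered reads of those 2 libraries did not pass a file check, the Myc call had been kept. Without both libraries numbered 4 it held, at an adjusted p of 0.00338. The alternatives ranged over 0.000885 to 0.116 in adjusted p and -0.81 to -0.48 in log2 fold change.

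Both main Myc introns moved alike. The junction into block 4 had 569, 456, 542 and 414 reads in the knockout and 876, 916, 789 and 588 in the wild type. Block 1 joins block 3 at 2 acceptors, as Gencode M21 starts that exon at 61987507 and at 61987510. The acceptor named E3.3 took 23.7 ± 1.93% of these reads in the knockout and 22.2 ± 0.898% in the wild type (SD, n = 4 each, exact permutation p = 0.2857, adjusted over the 6 ratios 0.343), a difference within the spread between libraries.

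Per junction, which allows genes to be compared, Myc stood highest of the 9 in both groups, at 22.4 ± 3.91 RPM in the knockout and 36.8 ± 5.65 RPM in the wild type (SD, n = 4 each). Mxd1 was second in the knockout, at 17.7 ± 4.39 RPM, and sixth in the wild type, at 2.89 ± 0.946 RPM. Each library then gave a ratio of Mxd1 to Myc, which was 0.637, 0.759, 0.966 and 0.791 in the knockout and 0.0988, 0.0831, 0.0682 and 0.0585 in the wild type. The ratio was 10.2-fold higher in the knockout, and in no knockout library did Mxd1 reach the level of Myc. The exact permutation p was 0.0286, the smallest possible, and 0.0572 adjusted over the 6 ratios. As Mxd1 was higher and Myc lower in every knockout library than in any wild-type one, this p was fixed and adds no support. Mxi1, by its 2 first-block junctions, stood to Myc at 0.477 ± 0.0505 in the knockout and 0.124 ± 0.0367 in the wild type (SD, n = 4 each, exact permutation p = 0.0286, adjusted 0.0572). The sums of those 2 junctions did not overlap between groups, so that p was fixed likewise. The plan gave the ratio of summed MXD to MYC reads as an example, and the ratios to Myc shown here were taken in its place.

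**Figure D4:**
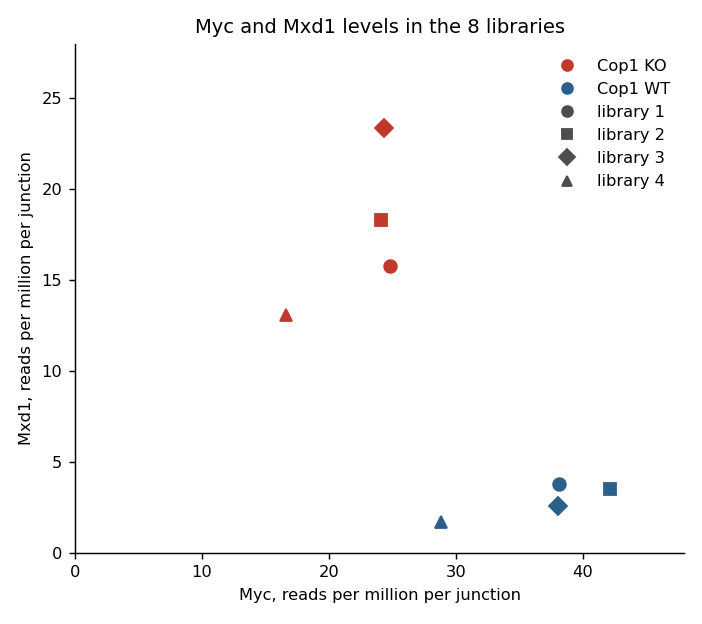
Level of Mxd1 (vertical axis) against that of Myc (horizontal axis), both in RPM per junction, in the 4 Cop1 KO libraries (red) and the 4 Cop1 WT libraries (blue), with a marker for each library number. The KO libraries lie at 13.1 to 23.4 for Mxd1 and 16.6 to 24.8 for Myc, and the WT libraries at 1.68 to 3.77 for Mxd1 and 28.8 to 42.1 for Myc.

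Max, the partner shared by MYC, the MXD proteins, MNT and MGA, lies on chromosome 12 at 76937269 to 76962201, minus strand. It was read at 49.7, 53.7, 50.7 and 64.8 RPM in the knockout and 56.0, 56.4, 57.4 and 61.1 RPM in the wild type. The groups overlapped and the difference did not pass the test (log2 fold change -0.08, SE 0.10, limma adjusted p = 0.624). Per junction it averaged 11.4 ± 2.03 RPM in the knockout and 11.7 ± 0.783 RPM in the wild type (SD, n = 4 each). The second exon block of Max can be skipped. It was kept in 32.0 ± 0.556% of reads in the knockout and 29.9 ± 2.71% in the wild type (SD, n = 4 each, exact permutation p = 0.2286, adjusted 0.343), a difference not larger than the spread in the wild type.

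The other MAX partners of the MXD and MNT kind did not pass the test on the full sums. Mxd4 (chromosome 5, 34173883 to 34187720, minus strand) was read at 46.3, 23.2, 46.4 and 52.5 RPM in the knockout and 61.8, 60.6, 53.2 and 47.0 RPM in the wild type. These values overlapped, at a log2 fold change of -0.45 (SE 0.24, limma adjusted p = 0.229). The low knockout library 2 had 1 read at each of 2 junctions that had up to 314 and 314 in other knockout libraries. At the junction between blocks 4 and 5, knockout library 3 also had only 5 reads and wild-type library 4 only 1. Without these 2 junctions the log2 fold change was -0.27 (SE 0.13, limma adjusted p = 0.159), and the groups still overlapped. Mxd3 (chromosome 13, 55325168 to 55329823, minus strand) was the least read of the 9, at 5.30 to 11 RPM in the knockout and 4.77 to 11.4 RPM in the wild type, with a log2 fold change of 0.06 (SE 0.28, limma adjusted p = 0.912).

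Mnt, the broadly expressed MAX partner that opposes MYC, lies on chromosome 11 at 74830920 to 74845725, plus strand. It was read at 33.7, 26.4, 29.8 and 33.9 RPM in the knockout and 35.3, 39.4, 33.5 and 22.3 RPM in the wild type, which overlapped (log2 fold change -0.05, SE 0.18, limma adjusted p = 0.872). In wild-type library 4, 2 junctions had 1 read each where knockout libraries had 80 to 151 and 90 to 169, and wild-type library 1 had 1 read at the second of them. Without these 2 junctions the sums were 18.8, 16.6, 18.2 and 19.6 RPM in the knockout and 26.7, 24.0, 21.8 and 22.2 RPM in the wild type, which did not overlap. Then Mnt passed the test as lower, at -0.35 (SE 0.11, limma adjusted p = 0.037), and the count became 2 higher and 2 lower of 9.

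Mga, which carries MAX into PRC1.6, lies on chromosome 2 at 119897228 to 119969581, plus strand, and was read at 49.2, 45.8, 43.1 and 73.0 RPM in the knockout and 64.1, 62.2, 50.1 and 78.6 RPM in the wild type. The groups overlapped (log2 fold change -0.28, SE 0.19, limma adjusted p = 0.341), although each knockout library was below the wild-type library of its number. Mlx, on chromosome 11 at 101087277 to 101092207, plus strand, was read at 24.4, 27.3, 13 and 31.5 RPM in the knockout and 9.96, 33.8, 20.2 and 18.3 RPM in the wild type. These overlapped too (0.27, SE 0.38, limma adjusted p = 0.664). Over its 2 main junctions without values far below the gene, Mlx stood at 5.45 to 5.85 RPM per junction in the knockout and 3.12 to 4.95 in the wild type, which did not overlap. A difference of this kind was not called in any of the 25 alternatives, the lowest adjusted p being 0.0527. Block 3 of Mlx was kept in 86.7 ± 4.07% of reads in the knockout and 86.4 ± 9.16% in the wild type (SD, n = 4 each, exact permutation p = 0.9143, adjusted 0.914).

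Of the 10 member promoters in RefSeq, which belong to 8 members with 3 for Mxi1, 4 hold CACGTG within the 300 bases, against 7.15% of 32851 mouse promoters of that length. They are Max, Mlx, Mnt and Mxd4, none of which passed the test on the full sums. The windows show the E-box in capitals with its flanks, at 3, 40, 123 and 219 bases before the start site, and a match describes letters in this window only. They lie at chr12:76962236-76962261 and chr5:34187914-34187939 on the minus strand and at chr11:101087240-101087265 and chr11:74830791-74830816 on the plus strand.
Max: tgagcccggtCACGTGttagggggcc
Mlx: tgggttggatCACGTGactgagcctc
Mnt: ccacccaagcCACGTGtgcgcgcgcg
Mxd4: gctgggccacCACGTGctgttgctaa

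Partners of the network and related factors were read next, as lists of known genes. Of the 2 tested genes that pair with MLX or stand beside MYC, neither passed: Mycn, a MYC relative, averaged 10.5 ± 7.61 RPM in the knockout and 18.2 ± 4.77 RPM in the wild type (SD, n = 4 each, limma adjusted p = 0.149, and 0.0486 with the block), and Mlxip was at 70.5 ± 1.67 RPM in the knockout and 64.9 ± 9.99 RPM in the wild type. Of 9 other E-box factors, 1 was higher and 1 lower. Tfap4, a MYC target that itself binds E-boxes, fell to 16.6 ± 2.56 RPM in the knockout, against 34.9 ± 1.09 RPM in the wild type (SD, n = 4 each, log2 fold change -1.04, SE 0.13, limma adjusted p = 0.00231). Tfe3, a lysosomal regulator, was at 19.8 ± 3.16 RPM in the knockout and 10.4 ± 2.66 RPM in the wild type (SD, n = 4 each), with an adjusted p of 0.0161 that became 0.679 without its 8 affected junctions. With the library number as a block, by which 12.3% of all genes tested were called higher and 15.7% lower, 2 of these E-box factors were higher.

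Of 24 coactivators of MYC, 0 were higher and 8 lower, with a list median of -0.25 beside -0.07 for all genes tested. With TMM scaling 1 was higher and 5 lower, and with 1 library left out 3 to 8 were lower, fewer by over 1.5 times without any library other than knockout library 4. They include Hcfc1 (-0.55, SE 0.07), Kat2a, an acetyltransferase of the SAGA complex (-0.86, SE 0.18), and Mbtd1 of the TIP60 complex (-0.76, SE 0.15). Of 18 genes of the SIN3 corepressor, which the MXD proteins recruit, 0 were higher and 5 lower (median -0.21), among them Hdac2, a histone deacetylase, at 126 ± 17.7 RPM in the knockout and 190 ± 13.4 RPM in the wild type (SD, n = 4 each). The SIN3 count was 3 with TMM scaling, 1 by edgeR, and 3 without knockout library 1 or 3 or wild-type library 2, 3 or 4. Of 10 PRC1.6 genes, 0 were higher and 2 lower, Pcgf6 and L3mbtl2 (median -0.32). That count was 0 with TMM scaling, and 0 to 1 without any library other than knockout library 4. Of 21 genes that act on MYC protein stability, 2 were higher and 6 lower (median -0.32). Without affected junctions 1 was higher and 9 lower, and Gsk3b went from 0.45 (limma adjusted p = 0.0237) to 0.01 (0.975). With 1 library left out 0 to 2 were higher and 2 to 8 lower, with both counts down by over 1.5 times without knockout library 1, 2 or 3 or wild-type library 1, 2 or 4, and the higher count also without wild-type library 3. Pim2, a kinase that stabilises MYC, was at 22.7 ± 8.51 RPM in the knockout and 61.3 ± 5.54 RPM in the wild type (SD, n = 4 each, log2 fold change -1.45, SE 0.21), and Skp2, a ubiquitin ligase subunit for MYC, was at 11.1 ± 1.82 RPM in the knockout and 20.8 ± 3.81 RPM in the wild type (SD, n = 4 each, -0.85, SE 0.17).

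**Figure D5:**
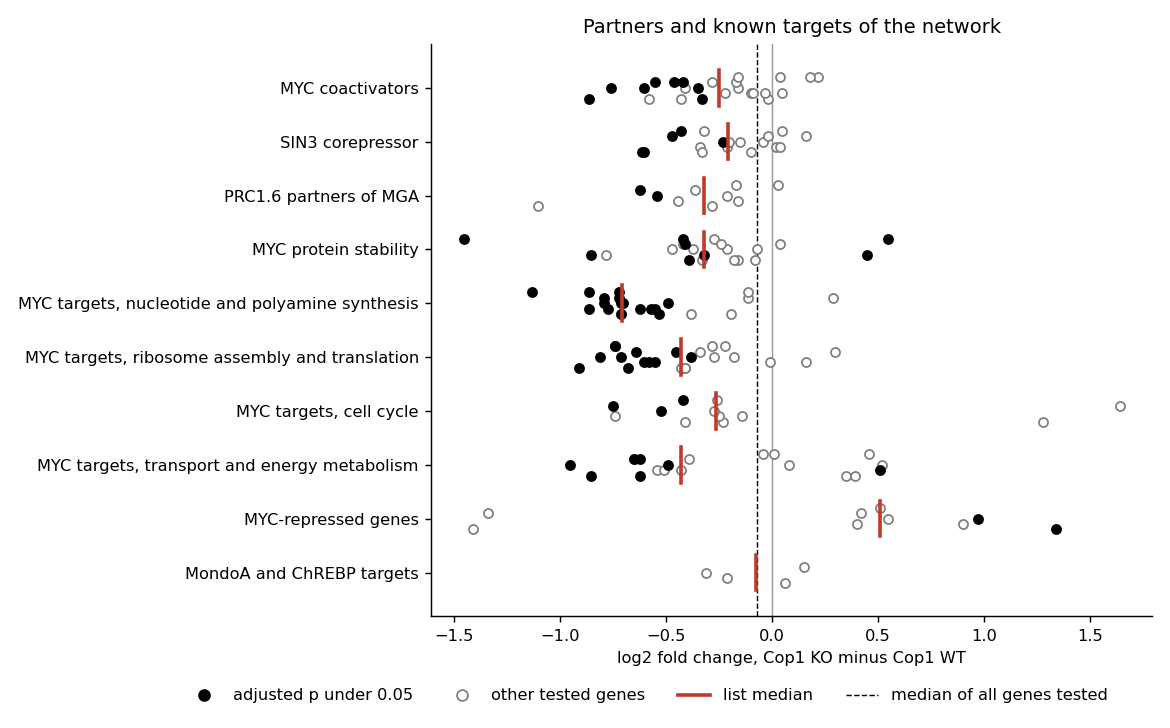
Log2 fold change, Cop1 KO minus Cop1 WT (horizontal axis), of each tested gene in 10 lists of network partners and known targets; filled points passed the limma test, red bars are list medians and the dashed line is the median of all genes tested at -0.07. The nucleotide list has its median at -0.70 and the ribosome assembly list at -0.43.

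Known targets of MYC were counted the same way. Of 22 for nucleotide and polyamine synthesis, 0 were higher and 16 lower, with a median of -0.70. The lower count was 7 without knockout library 1 or wild-type library 2 or 4, 6 without knockout library 3 and 8 without wild-type library 3. Impdh2, an enzyme of guanine nucleotide synthesis, was at 293 ± 39.5 RPM in the knockout and 530 ± 12.4 RPM in the wild type (SD, n = 4 each, log2 fold change -0.86, SE 0.10, limma adjusted p = 0.00201). Ppat, which starts purine synthesis, was at 50.6 ± 11.8 RPM in the knockout and 110 ± 6.28 RPM in the wild type (SD, n = 4 each, -1.13, SE 0.16, limma adjusted p = 0.00387). Of 23 for ribosome assembly and translation, 0 were higher and 12 lower (median -0.43), among them Fbl and Ncl, both nucleolar proteins, and Nolc1 at 198 ± 36.9 RPM in the knockout and 346 ± 34.0 RPM in the wild type (SD, n = 4 each, -0.81, SE 0.14).

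Of 12 targets in the cell cycle, 0 were higher and 3 lower, Cdc25a, Cks1b and Cdk4 (median -0.26), and with the block 2 were higher and 5 lower. Without knockout library 4 there were 2 higher and 6 lower, and 1 was lower without knockout library 2 or wild-type library 1, 2 or 3. Of 19 for transport and energy metabolism, 1 was higher and 6 lower (median -0.43). The lower count was 3 with TMM scaling, 1 to 3 without any 1 of knockout libraries 1 to 3 or wild-type libraries 2 to 4, and 7 without affected junctions, where 3 were higher; without wild-type library 1, 2 were higher. Shmt2, a mitochondrial one-carbon enzyme, fell to 290 ± 70.4 RPM in the knockout, against 554 ± 73.5 RPM in the wild type (SD, n = 4 each, -0.95, SE 0.17), while Slc3a2, the shared chain of several amino acid transporters, rose to 733 ± 111 RPM in the knockout, against 511 ± 11.7 RPM in the wild type (SD, n = 4 each, 0.51, SE 0.11). Of 9 genes that MYC is known to repress, 2 were higher and 0 lower (median 0.51). They were Btg1, a brake on division, at 53.5 ± 16.1 RPM in the knockout and 20.4 ± 4.82 RPM in the wild type (SD, n = 4 each, 1.34, SE 0.23), and Cdkn1a, an inhibitor of cyclin-dependent kinases, at 132 ± 25.9 RPM in the knockout and 67.0 ± 15.1 RPM in the wild type (SD, n = 4 each, 0.97, SE 0.19). With the block, 3 were higher and 1 lower, and without wild-type library 2, 1 was lower. Of the 4 tested targets of MondoA and ChREBP, partners of MLX, 0 passed either way. Txnip was at 267 ± 104 RPM in the knockout and 240 ± 80.6 RPM in the wild type (SD, n = 4 each).

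Some markers of other cell types and of division also differed between the groups. In bulk RNA, fewer cells of a type and less RNA per cell cannot be told apart. Of 15 tested neutrophil maturation genes, 9 were higher in the knockout and 0 lower, and the list summed to 713 to 11700 RPM in the knockout and 106 to 471 RPM in the wild type. Without knockout library 4, 14 were higher. Of 9 mast cell and basophil genes 5 were higher and 0 lower, at sums of 12400 to 17600 RPM in the knockout and 12200 to 14200 RPM in the wild type. These sums were mostly Cpa3, which did not pass the test, at 11700 ± 2290 RPM in the knockout and 12300 ± 790 RPM in the wild type (SD, n = 4 each). Mcpt8, among the 5 higher, was at 2380 ± 304 RPM in the knockout and 377 ± 198 RPM in the wild type (SD, n = 4 each). Of 5 promyelocyte genes 2 were higher and 0 lower, and of 7 monocyte and macrophage genes 2 were higher and 0 lower. The median of the monocyte and macrophage list was -0.16, and with the block 3 of its genes were higher and 1 lower. The promyelocyte count was 1 without any library other than knockout library 4 or wild-type library 3, and the monocyte count was 1 without knockout library 3. Of 18 S phase genes 0 were higher and 12 lower, at sums of 2350 to 2830 RPM in the knockout and 3840 to 4210 RPM in the wild type. Their part in the changes of Myc, Mxd1, Mxi1 and the target lists was not tested. Lymphoid markers summed to at most 6.39 RPM in the knockout and 6.20 RPM in the wild type. Of 4 tested erythroid genes 0 were higher and 1 lower (median -0.29). Of 3 eosinophil genes 0 were higher and 0 lower (median -0.30), and of 4 megakaryocyte genes 1 was higher and 0 lower (median -0.33).

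Genes with the pattern most like a member were taken by Pearson's r of log2(RPM + 1) over the 8 libraries, among 7698 genes. As the 8 libraries fall into 2 genotypes, r reflects that split. For Myc these were Sema4b (r = 0.993), Nrm (0.989), Paox (0.974), Prr5 (0.973) and Eif4ebp2 (0.973), and for Mxd1 they included Cast (0.990), Fcer1g (0.988), Klf6 (0.988) and Plin2 (0.985). Cast, the most like Mxd1, averaged 861 ± 42.9 RPM in the knockout and 311 ± 55.0 RPM in the wild type (SD, n = 4 each), and Sema4b, the most like Myc, 28.7 ± 6.40 RPM in the knockout and 56.7 ± 11.5 RPM in the wild type (SD, n = 4 each).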

How the data were processed

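The submitters' processing notes name Trimmomatic 0.39, kallisto and build mm10; the aligner is not stated there. Per the file header, rows are AltAnalyze junctions. The deposited unit is a signal per junction: tested on its values, (reads + 1) scaled by library total and 60 nt, with 0 reads at 0.854. Recovered reads were whole within 0.001 for 100% of values above that floor in each library; counting the floor values too, they passed the file check in only 6 of 8 libraries. They were summed per gene; a fragment over several junctions counts at each. limma 3.58.1 (R 4.3.3) was run on log2(RPM + 1), trend and robust, without a block, keeping genes averaging 1 RPM or more, at a threshold of 0.05, and was tested on simulated data.

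Affected values had at most 6 reads where at least 100 were predicted (the gene's median relative level times the junction's highest). These limits were set in advance, but the form of the prediction was revised after the members' values had been seen, and its lower bound again later. edgeR 4.0.16 and DESeq2 1.42.0 were planned on 8 libraries. The file check, which counts floor values, failed for knockout libraries 2 and 4. The floor of 0.854 was the same in all 8 libraries, and above it reads were whole in these 2 as in the others. Because of the check, the 8-library fits, already run, were withdrawn and both tools were run on the other 6.

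Same-numbered libraries deviated together (correlations 0.316, 0.293, 0.356 and 0.55; highest other 0.146), so the numbers pair them, and a fit with that block stands beside the reported one. Libraries of a group differed beyond sampling noise (lowest chi-square over its degrees of freedom, 30.8). Ratios had two-sided exact permutation tests (scipy 1.17.1). The members and the 25 lists (311 genes) were chosen with earlier results of these data known. The rule named all members, Cop1, Trib1, up to 4 genes per list by adjusted p (or 2 by mean where none passed) and the 5 genes most like Myc and Mxd1; some list genes are not shown, and 1 gene most like Mxd1 is not reported here. Cpa3 was named outside the rule, as the largest part of a list sum. Coordinates are from Gencode M21 and sequences from RefSeq on GRCm38.p6, which had no promoter entry for Myc.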

Additional observations from a re-analysis of the deposited data

Results flagged for a closer look

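In 42 groups of 4 libraries, chance alone would set about 1 in 20 apart by the distance used. Myc was read at 38.0 RPM in knockout library 4, while the other knockout libraries lay at 54.6 to 57.6 RPM. Mga, without affected junctions, was read at 73.0 RPM in knockout library 4 and at 42.5 to 46.8 RPM in the others. The share of Mxi1 first-block reads from block 1 was 34.8% in wild-type library 4 and 54.4 to 57.6% in the other wild-type libraries. Without both libraries numbered 4, this share differed by 30.3 percentage points between knockout and wild type, beside 32.9 with them.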

How the results depend on the processing

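Mxd1 and Mxi1 were called higher, and no other member was, in all 25 alternatives. The count of members called lower was 1 as reported, 0 with TMM scaling, by edgeR and by DESeq2, 2 without affected junctions (2 also with the replicate block and 2 at the lower limit of 20 predicted reads), 3 without affected junctions and both libraries numbered 4, and 0 to 1 when each library was left out in turn. Mnt made the added call (adjusted p = 0.0292 to 0.0456 in 4 alternatives) and Mga the third (0.0365). For all genes, higher calls were 1433 by DESeq2, 1552 with the block and TMM scaling, 1681 with the block and without affected junctions, 1514 without affected junctions and both libraries numbered 4, and 509 to 1249 with 1 library left out. Lower calls were 756 by edgeR, 2375 with the block and without affected junctions, 2119 without affected junctions and both libraries numbered 4, and 706 to 1742 with 1 library left out. Member junctions called for use were 2 at a mean of 30 reads, both from 1 contrast within Mxi1. The causes were not tested. The replicate block alone (2 members higher, 1 lower; Myc adjusted p = 0.00417; 1357 and 1727 of all genes) changed no member's call. The lower limit, the fit without affected junctions and both libraries 4, the Mxi1 share and the 6-library count tests were added after seeing the data; edgeR and DESeq2 were first run on 8 libraries, and those fits, which kept the Myc call, were withdrawn. The Mxi1 share rests on 23 to 58 reads from block 2 per library, which limits its precision.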
